A study of Homo sapiens with 2 samples.

Results

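The genes described here encode 9 proteins of the PI3K and mTOR pathway: PIK3CA, PIK3CD, PIK3R1, INPP5D, AKT1, FOXO3, TSC1, SESN1 and MTOR. Contacts of their promoters were measured with promoter-capture Hi-C in K562, an established chronic myelogenous leukaemia line that carries the BCR-ABL1 fusion, after 24 h with 100 nM ponatinib, a BCR-ABL1 inhibitor, or with the vehicle DMSO. Each treatment had 1 library, so the treatment could not be tested and no difference below can be set against a spread between replicates. In this assay crosslinked chromatin is cut with HindIII, nearby ends are ligated, and RNA probes pull out the fragments that carry promoters (baits). The authors listed, for each library, pairs of fragments with a score of at least 5, and the comparison asks which listed pairs differ after kinase inhibition.

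A gene was taken as measured when either of its ends lay on a fragment listed as a bait in either library, and its pairs were all unordered pairs with that fragment at an end. By this rule 7 of the 9 genes had a listed bait fragment, 1 each, and PIK3CD and FOXO3 had none. The 7 genes had 58 of the 91305 pairs listed for ponatinib and 63 of the 84049 pairs listed for DMSO, or 88 of 138160 pairs over both lists. Of the 20056 protein-coding genes in the RefSeq table, 13721 had a listed bait. Read depth is unknown for both libraries, and scores were not normalised between them. The 95% intervals below (exact binomial) cover counting error only and treat pairs as independent, which neighbouring fragments are not. In shares of pairs that are in ponatinib, a pair found in both lists counts in each, so these intervals also ignore the pairing of the lists. Pairs between chromosomes 9 and 22, which the BCR-ABL1 fusion joins, numbered 1781 in ponatinib and 1654 in DMSO.

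Class I PI3 kinases pair a catalytic subunit, such as p110-alpha (PIK3CA) or the leukocyte-enriched p110-delta (PIK3CD), with a regulatory subunit such as p85-alpha (PIK3R1). They make the membrane lipid PIP3, which the 5-phosphatase SHIP1 (INPP5D), a protein of blood cells, removes, and PIP3 recruits the kinase AKT1. AKT holds FOXO3, a transcription factor, out of the nucleus and inhibits the TSC complex, of which TSC1 is the scaffold. That complex restrains the kinase mTOR (MTOR), and sestrin 1 (SESN1), a target gene of p53, restrains mTOR from the amino acid side. In chronic myelogenous leukaemia BCR-ABL1 signals through this pathway.

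The bait fragments of 6 of the 7 genes hold an annotated transcription start of the gene. The promoter windows of 4 of them are shown because most pairs described below are contacts of these 4 fragments. Each runs from 250 bases before to 50 bases after the start (RefSeq, GRCh38.p14, on the strand of the gene). A single capital marks the first transcribed base, and a run of capitals marks a match to a searched motif.
PIK3CA, chr3:179148107-179148406, plus strand: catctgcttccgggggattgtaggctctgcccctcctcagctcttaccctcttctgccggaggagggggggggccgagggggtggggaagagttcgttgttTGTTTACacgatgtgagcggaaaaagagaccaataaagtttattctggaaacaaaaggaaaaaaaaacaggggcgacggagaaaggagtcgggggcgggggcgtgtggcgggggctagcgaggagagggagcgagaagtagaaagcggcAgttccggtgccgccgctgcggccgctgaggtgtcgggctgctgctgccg
INPP5D, chr2:233060092-233060391, plus strand: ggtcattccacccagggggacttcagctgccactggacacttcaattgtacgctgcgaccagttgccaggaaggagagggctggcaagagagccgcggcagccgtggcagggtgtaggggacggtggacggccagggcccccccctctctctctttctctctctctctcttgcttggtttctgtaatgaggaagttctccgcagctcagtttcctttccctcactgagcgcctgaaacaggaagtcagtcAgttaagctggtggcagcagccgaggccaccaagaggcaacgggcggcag
SESN1, chr6:109094797-109095096, minus strand: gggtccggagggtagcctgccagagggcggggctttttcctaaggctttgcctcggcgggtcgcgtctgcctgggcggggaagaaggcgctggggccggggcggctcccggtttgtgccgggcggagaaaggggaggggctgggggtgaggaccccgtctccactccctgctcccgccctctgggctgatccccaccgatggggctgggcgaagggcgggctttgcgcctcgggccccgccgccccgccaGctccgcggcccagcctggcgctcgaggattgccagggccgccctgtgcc
MTOR, chr1:11262502-11262801, minus strand: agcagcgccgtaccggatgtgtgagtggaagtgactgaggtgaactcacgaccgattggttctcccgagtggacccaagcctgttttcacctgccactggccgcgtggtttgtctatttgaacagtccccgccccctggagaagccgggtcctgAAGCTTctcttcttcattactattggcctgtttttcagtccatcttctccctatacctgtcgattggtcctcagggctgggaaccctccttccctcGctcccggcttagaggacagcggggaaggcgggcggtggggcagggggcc

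The windows were searched on both strands for 4 motifs: TTCNNNGAA (STAT5), GTAAACA (FOXO), GATAA (GATA factors) and the HindIII site AAGCTT. The PIK3CA window holds a FOXO match from base -149, which is the reverse complement TGTTTAC, and 3.42% of the 35116 promoter windows in the table hold that motif. The MTOR window holds a HindIII site from base -96, found in 5.84% of windows. The windows of INPP5D, SESN1, TSC1 and PIK3R1 on listed baits hold none of the 4 letter strings, and no match overlapped another. STAT5 strings occur in 7.66% of all windows and GATA strings in 22.7%. A match is a description of letters and not of a bound site. The HindIII site of the MTOR window is the edge of its bait fragment, and all 973 HindIII sites of the promoter table that touched a listed fragment lay at a fragment end, so the lists and the table share their coordinates.

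The number of listed pairs differed widely among the genes. PIK3CA had 27 pairs in ponatinib and 30 in DMSO, more over both lists than 97.4% of the genes with a listed bait. SESN1 had 6 and 14, MTOR 7 and 10, INPP5D 10 and 5, and TSC1 4 and 2. PIK3R1 and AKT1 were near the bottom, each with 2 and 1. The order over both lists was therefore PIK3CA, SESN1, MTOR, INPP5D, TSC1, then PIK3R1 and AKT1 together, and the totals of SESN1, MTOR and INPP5D (20, 17 and 15) are close to each other.

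**Figure D1:**
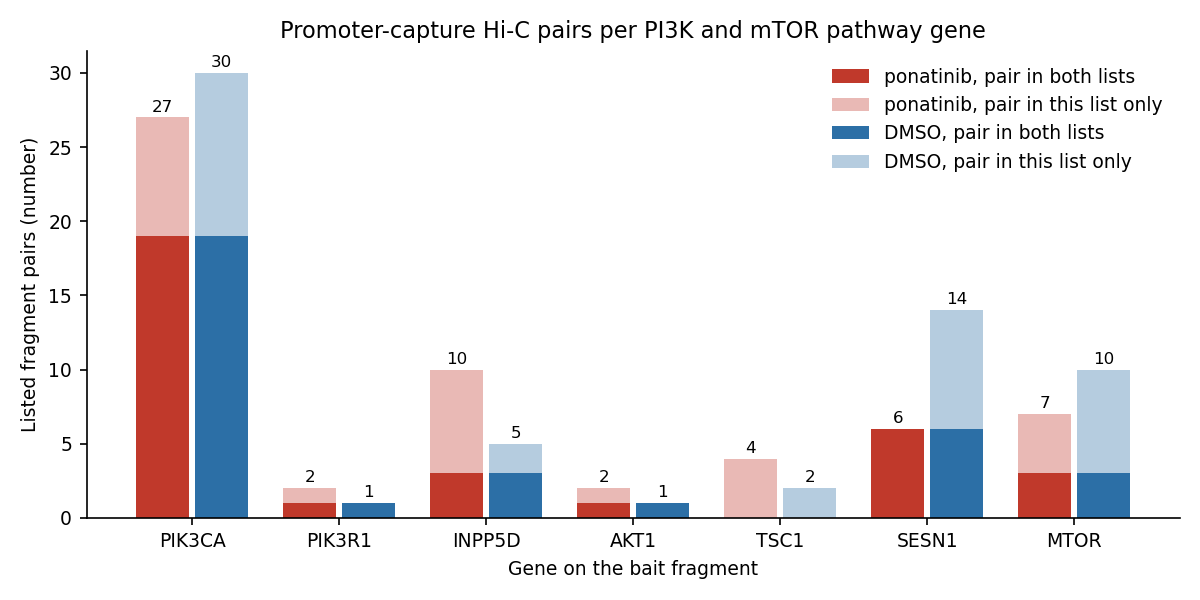
Number of listed fragment pairs (y axis) of each gene with a listed bait fragment (x axis), ponatinib in red to the left of DMSO in blue, with the dark part of each bar for pairs found in both lists. PIK3CA has 27 and 30 pairs, all 6 ponatinib pairs of SESN1 are dark, and TSC1 has no dark part.

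Among the 9787 genes with 5 or more pairs in total, 9.92% had at least 2-fold more pairs in ponatinib and 6.26% at least 2-fold fewer, on the scale log2((ponatinib + 1)/(DMSO + 1)). Of the 5 genes described here with at least 5 pairs, 0 passed 2-fold upwards and 1, SESN1, passed it downwards (-1.10). The values were 0.87 for INPP5D, 0.74 for TSC1, -0.15 for PIK3CA and -0.46 for MTOR, against a median of 0.08 over all genes with at least 5 pairs. With 5 genes, a count of 1 cannot be told from those background shares. The background itself depends on scaling, since 971 genes had more and 613 fewer as listed, 671 and 626 after dividing ponatinib numbers by the ratio of list lengths (1.09), and 722 and 827 in lists of equal length.

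Together the genes' pairs were in ponatinib in 47.9% of cases (38.8 to 57.2%), an interval that holds the 52.1% of the whole lists. The 33 shared pairs count in both lists, which draws this share towards 50%. Pairs in 1 list only numbered 25 in ponatinib and 30 in DMSO. At scores of at least 7 the share was 54.5% (40.6 to 68.03%), on the other side of 50%. The identical pair was in both lists for 33 of 88 pairs, 37.5% (27.4 to 48.5%), against 26.9% of all pairs. Without PIK3CA the share was 28.0% (16.2 to 42.5%), so the excess over the whole lists came with that gene. With both ends matched within 5 kb, 74.1% of the ponatinib pairs (61.0 to 84.7%) and 76.2% of the DMSO pairs (63.8 to 86.02%) of these genes had a counterpart. These counterparts came from the genes' own pairs only. In the whole lists, where any pair could be the counterpart, the shares were 66.6% and 67.5%, so the measures are not alike. Pooled over these genes, pairs listed in 1 library only had a lower median score than shared pairs, as in the whole lists, though not in each gene and list. The median of the pairs in 1 library only was 5.98 in ponatinib and 6.005 in DMSO for these genes, and the shared pairs had medians of 7.63 and 7.48.

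The median distance between fragment midpoints on the same chromosome was 180 kb in ponatinib and 183 kb in DMSO for these genes, a difference of -3.42 kb with an interval of -66.0 to 24.6 kb. In the whole lists it was 242 and 234 kb. A single pair in ponatinib and 4 in DMSO had the partner on another chromosome, 1.72% and 6.35%, against 7.44% and 7.56% of the whole lists. With so few pairs no difference is read. No partner fragment was shared by any 2 of these genes. Their baits each lie on a different chromosome, so a shared partner was hardly possible and its absence says little. None of the partners held an end of another gene of the pathway list described further down.

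PIK3CA, the gene of the p110-alpha catalytic subunit, lies on chromosome 3 (179148126 to 179240093, plus strand). Its bait, chr3:179145700-179149605, holds the PIK3CA start and that of the divergent non-coding gene PIK3CA-DT. Of its 38 pairs over both lists 28 lay downstream beyond the gene's own end, 6 upstream, 2 within the gene and 2 on other chromosomes. The downstream contacts thus outnumbered the upstream ones in both libraries, 20 to 5 in ponatinib and 22 to 5 in DMSO.

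The strongest contacts formed an unbroken run of 10 adjacent fragments downstream of the bait, chr3:179295136-179329472, which spans 34.3 kb. The midpoints of its fragments lie 154 to 180 kb from the bait midpoint. It reaches from between KCNMB3 and ZNF639 into ZNF639, a zinc finger gene. All 10 fragments were paired with PIK3CA in ponatinib, with scores of 7.11 to 18.86, and 8 in DMSO, with scores of 8.59 to 22.16. The highest score of PIK3CA in each list was at the fragment with the ZNF639 start, chr3:179319886-179324126, with 18.86 in ponatinib and 22.16 in DMSO. These scores were above those of 95.9% of the ponatinib list and 97.2% of the DMSO list. Of the 8 fragments in both lists 2 had the higher score in ponatinib and 6 the lower. The run held 8 of the 10 PIK3CA pairs with scores of at least 10 in ponatinib and 7 of 9 in DMSO. The largest fragment of the run, chr3:179295136-179308060, was listed in ponatinib only, with a score of 12.43.

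**Figure D2:**
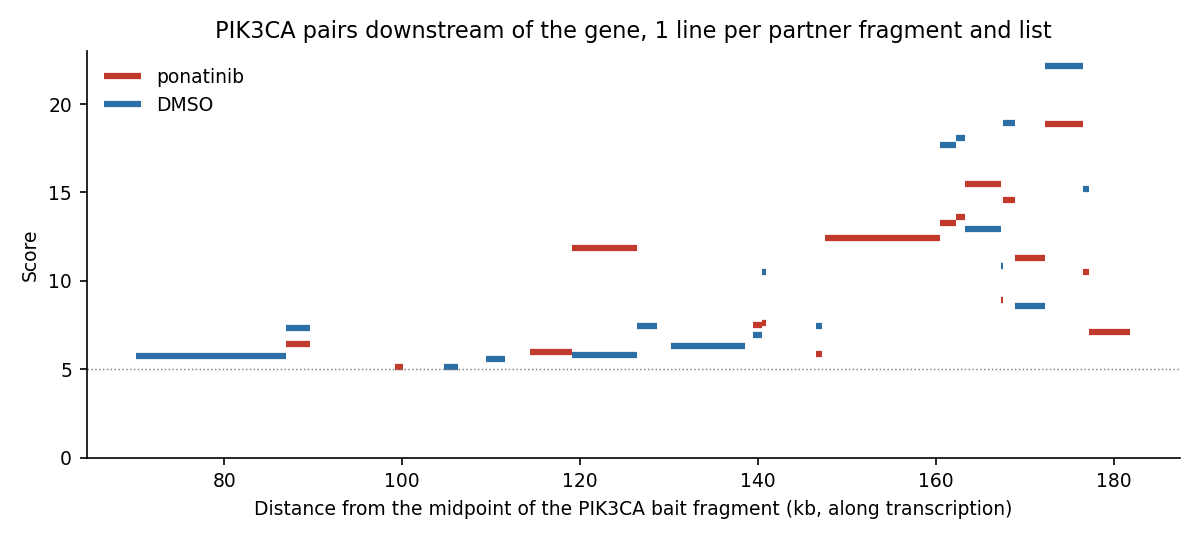
Scores (y axis) of PIK3CA pairs over the end of the gene and the region downstream, against distance from the bait midpoint (x axis, kb along transcription), 1 horizontal line per partner fragment and list, drawn at the fragment's width, ponatinib in red and DMSO in blue; the dotted line is the lowest score listed, 5. The tall block at the right is the run of adjacent fragments with scores up to 18.86 in ponatinib and 22.16 in DMSO. Its fragment midpoints lie 154 to 180 kb from the bait midpoint.

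The same run was also contacted by the neighbouring promoter on the other side of PIK3CA. The bait of ZMAT3, a p53-induced RNA-binding protein gene (chr3:179070799-179080329), was paired with 10 of these fragments in ponatinib, with scores of 5.61 to 31.08, and with 9 in DMSO, with scores of 5.76 to 29.3. PIK3CA and ZMAT3 baits were also paired with each other, at 7.28 in ponatinib and 6.14 in DMSO. The ZMAT3 and ZNF639 fragments were paired at 29.82 in ponatinib and 29.3 in DMSO, so the promoter fragments of ZMAT3, PIK3CA and ZNF639 were joined pairwise in both libraries. The ZNF639 bait had 37 partners in ponatinib and 30 in DMSO, and the ZMAT3 bait 20 and 20. Of the ZNF639 partners 4 in ponatinib and 2 in DMSO lay within 15 kb of the PIK3CA bait without being that fragment.

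Upstream, PIK3CA was paired in both libraries with 3 adjacent fragments at the far end of ZMAT3, chr3:179017067-179029241. The middle fragment had the largest gap in score, 13.75 in ponatinib and 6.88 in DMSO, while its neighbours had 7.03 and 8.15 and 6.27 and 5.99. Further shared partners held ends of KCNMB3, a potassium channel subunit gene (11.84 in ponatinib, 5.83 in DMSO), of ACTL6A, a chromatin remodelling subunit gene (7.07 and 7.31), and of MRPL47 and NDUFB5, genes of the mitochondrial ribosome and of respiratory complex I (5.58 and 13.75). The fragment at the MFN1 start, 201 kb away, was listed in ponatinib only (8.63). The direction of the score difference therefore varied among the 19 shared partners, with 7 higher in ponatinib. Among all pairs shared by the whole lists, 53.6% were higher in ponatinib. Of the 8 pairs found in ponatinib only 5, and of the 11 found in DMSO only 7, lay within 5 kb of a PIK3CA partner in the other list.

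PIK3R1, the gene of the p85-alpha regulatory subunit, has 4 annotated starts on chromosome 5, and 1 of them lay on a listed bait, chr5:68213757-68216591. It was paired in both libraries with the fragment 27.1 kb upstream that holds the start of the non-coding gene LINC02219, with scores of 6.28 in ponatinib and 6.40 in DMSO. A second partner, chr5:67966399-67976420 at 244 kb upstream, was in the ponatinib list only (7.50). With 2 pairs and 1 pair no direction can be read. PIK3CD, on chromosome 1 (9627258 to 9729114), had no listed bait. The only listed pair that overlapped it joined its 3' end to the TMEM201 bait in DMSO, with a score of 6.74 at 131 kb.

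INPP5D, the SHIP1 gene, lies on chromosome 2 (233060342 to 233207903, plus strand) and starts on the bait chr2:233056945-233062755. It had 10 pairs in ponatinib and 5 in DMSO, of which 3 were shared. The share in ponatinib was 66.7% (38.4 to 88.2%), an interval that holds the 52.1% of the whole lists. Here too the 3 shared pairs count in both lists, and pairs in 1 list only were 7 in ponatinib and 2 in DMSO. Its partners fell into a narrow range on both sides, 166 to 208 kb from the bait in ponatinib and 182 to 208 kb in DMSO, with no partner inside the gene.

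Most of the pairs listed only in ponatinib lay downstream, beyond the end of INPP5D. There partners with gaps of at most 10 kb formed a group of 6 fragments, chr2:233240903-233263560, with 5 in ponatinib, 2 in DMSO and 1 in both. Within it 4 adjacent fragments, chr2:233243417-233263560 (20.1 kb), were picked because they were listed in ponatinib only. Their absence from DMSO is thus no separate result. These 4 fragments hold the start and first part of ATG16L1, an autophagy gene. The fragment with the ATG16L1 start scored 10.04, above 83.8% of the ponatinib list, and the next 3 scored 5.98, 5.11 and 5.17, close to the lowest score listed. In DMSO the contacts on this side were just before ATG16L1, at chr2:233240903-233242280 (6.70) and chr2:233242281-233243325 (5.89), and the second of these was in the ponatinib list as well (5.73). The DMSO partners thus ended within 5 kb of the first of the 4 fragments.

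On the upstream side INPP5D was paired with fragments over the end of GIGYF2, a translational repressor gene, and the start of SNORC, 4 in ponatinib and 3 in DMSO with 2 shared. The fragment with the end of GIGYF2 was in the DMSO list only (7.49), while its neighbours chr2:232861698-232862919 (5.10) and chr2:232862920-232864695 (5.96) were in the ponatinib list only. At scores of at least 7 INPP5D kept 1 pair in each list. The excess of pairs in ponatinib was therefore made of pairs with scores under 7.

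AKT1, on chromosome 14 (104769349 to 104795748, minus strand), had a listed bait only at its 3' end. That fragment, chr14:104757388-104772761, also holds an end of SIVA1, a proapoptotic gene, and neither of the 2 annotated AKT1 starts was on a listed bait. It was paired in both libraries with the fragment of the SIVA1 start and an ADSS1 end 19.5 kb away (7.53 in ponatinib, 7.63 in DMSO). A pair with a CEP170B fragment at 98.0 kb was in ponatinib only (6.28). These values describe the 3' end of AKT1 and not its promoter.

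FOXO3, on chromosome 6 (108559825 to 108684774), had no listed bait for any of its 4 starts. As a partner of other baits it was listed 3 times in ponatinib, with scores of 5.10 to 5.95, and 1 time in DMSO, with 6.30. None of these pairs was in both lists. Contacts from a FOXO3 bait were not analysed here.

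TSC1 lies on chromosome 9 (132891349 to 132945378, minus strand). Its bait, chr9:132939494-132947373, holds the TSC1 start and also a start of the divergently transcribed GFI1B, a transcription factor gene of erythroid and megakaryocytic cells. Pairs of these genes therefore cannot be told apart. A further annotated GFI1B start, at 132978694, was not on a listed bait. The bait had 4 pairs in ponatinib and 2 in DMSO. Of the 6, 0 were in both lists (0 to 45.9%), an interval that holds the 26.9% of the whole lists. None lay within 5 kb of a partner of this bait in the other list. In the whole lists, where both ends could shift by 5 kb, 66.6% of ponatinib and 67.5% of DMSO pairs had a counterpart. With 6 pairs no difference is read from this. The ponatinib partners were all on the TSC1 side, 271 to 539 kb away. They were a CFAP77 fragment (9.62), the fragment of the TTF1 start (6.99), the fragment of the BARHL1 start (6.81) and a GTF3C4 fragment (5.11). The DMSO partners were the fragment of the STKLD1 and SURF4 starts at 433 kb on the GFI1B side (5.20) and a fragment in RUVBL1 on chromosome 3 (6.71). The bait is 2.05 Mb beyond the end of ABL1, and 0 of its pairs in either list reached chromosome 22.

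SESN1, the sestrin 1 gene on chromosome 6 (108984309 to 109094846, minus strand), had the only change past 2-fold, 6 pairs in ponatinib and 14 in DMSO. Its bait, chr6:109091660-109095182, also holds the start of CEP57L1, which is transcribed the other way from 317 bases off, so the pairs belong to both promoters. All 6 ponatinib pairs were in the DMSO list as well, and 8 pairs were in DMSO only. The share in ponatinib was 30.0% (11.9 to 54.3%), an interval that holds the 52.1% of the whole lists. Here too the 6 shared pairs count in both lists, and pairs in 1 list only were 0 in ponatinib and 8 in DMSO. The interval ignores this pairing, so it cannot show whether SESN1 differed from the whole lists. The split of pairs in 1 list only was not tested. The 2 other annotated SESN1 starts were not on a listed bait.

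The shared partners had a median score of 9.59 in ponatinib and 6.61 in DMSO. The top partner in both lists was the fragment of the CD164 start, a sialomucin gene of blood progenitors, 288 kb away, with 17.08 in ponatinib and 24.28 in DMSO. That bait is itself a hub with 34 partners in each list. The fragment of the SEC63 start, a gene of protein entry into the endoplasmic reticulum, scored 12.70 in ponatinib and 6.34 in DMSO at 1133 kb, the longest SESN1 contact. The other shared partners were the ARMC2 start (6.61 and 6.39), a fragment within ARMC2 (8.76 and 6.82), a fragment over PPIL6 (10.41 and 7.54) and the ZBTB24 start (5.27 and 5.49). Thus 4 of the 6 shared partners scored higher in ponatinib, and the CD164 and ZBTB24 partners lower.

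The 8 SESN1 pairs missing from the ponatinib list were weak, with scores of 5.44 to 8.04, and 7 of them were under 7. Of the 8, 3 lay over PPIL6 between the CD164 and PPIL6 partners that were in both lists, and 4 in all lay within 5 kb of a ponatinib partner. A further 2 joined other chromosomes. At scores of at least 7 SESN1 had 4 pairs in ponatinib and 3 in DMSO, and at 10 it had 3 and 1. The direction thus turned with the score, on few pairs. The whole lists also held more pairs with scores of at least 10 in ponatinib (14935) than in DMSO (12533).

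MTOR, on chromosome 1 (11106535 to 11262551, minus strand), starts on a short bait of 974 bases, chr1:11261669-11262642. It had 7 pairs in ponatinib and 10 in DMSO with 3 shared, and its share in ponatinib was 41.2% (18.4 to 67.1%). The 3 shared partners all held gene starts. They were AGTRAP, an angiotensin receptor-associated protein gene, 473 kb away (10.48 in ponatinib, 9.88 in DMSO), SRM, the spermidine synthase gene, 204 kb away (7.98 and 7.63), and EXOSC10, an RNA exosome gene, 161 kb away (6.25 and 5.32). All 3 thus scored higher in ponatinib.

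Of the other 11 MTOR partners, 2 of the 4 in ponatinib only and 2 of the 7 in DMSO only lay within 5 kb of a partner in the other list. Around FBXO2, FBXO44 and FBXO6, the lists had 2 fragments each within 27.7 kb and none in common, up to 7.11 in ponatinib and 5.67 in DMSO. Around TARDBP the ponatinib list had chr1:11025669-11053063 (7.07) and the DMSO list the adjoining chr1:11005090-11025668 (5.14). Pairs over 500 kb were in DMSO only, with the DFFA region at 804 kb (7.09) and 789 kb (5.53) and KIAA2013 at 663 kb (5.23). MTOR had 0 of 7 pairs over 500 kb in ponatinib and 3 of 10 in DMSO, where 17.9% and 16.6% of pairs over all bait fragments were that long, so no change in distance is read from these counts. At scores of at least 7 the numbers were 4 and 3, again on the other side of 50%.

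**Figure D3:**
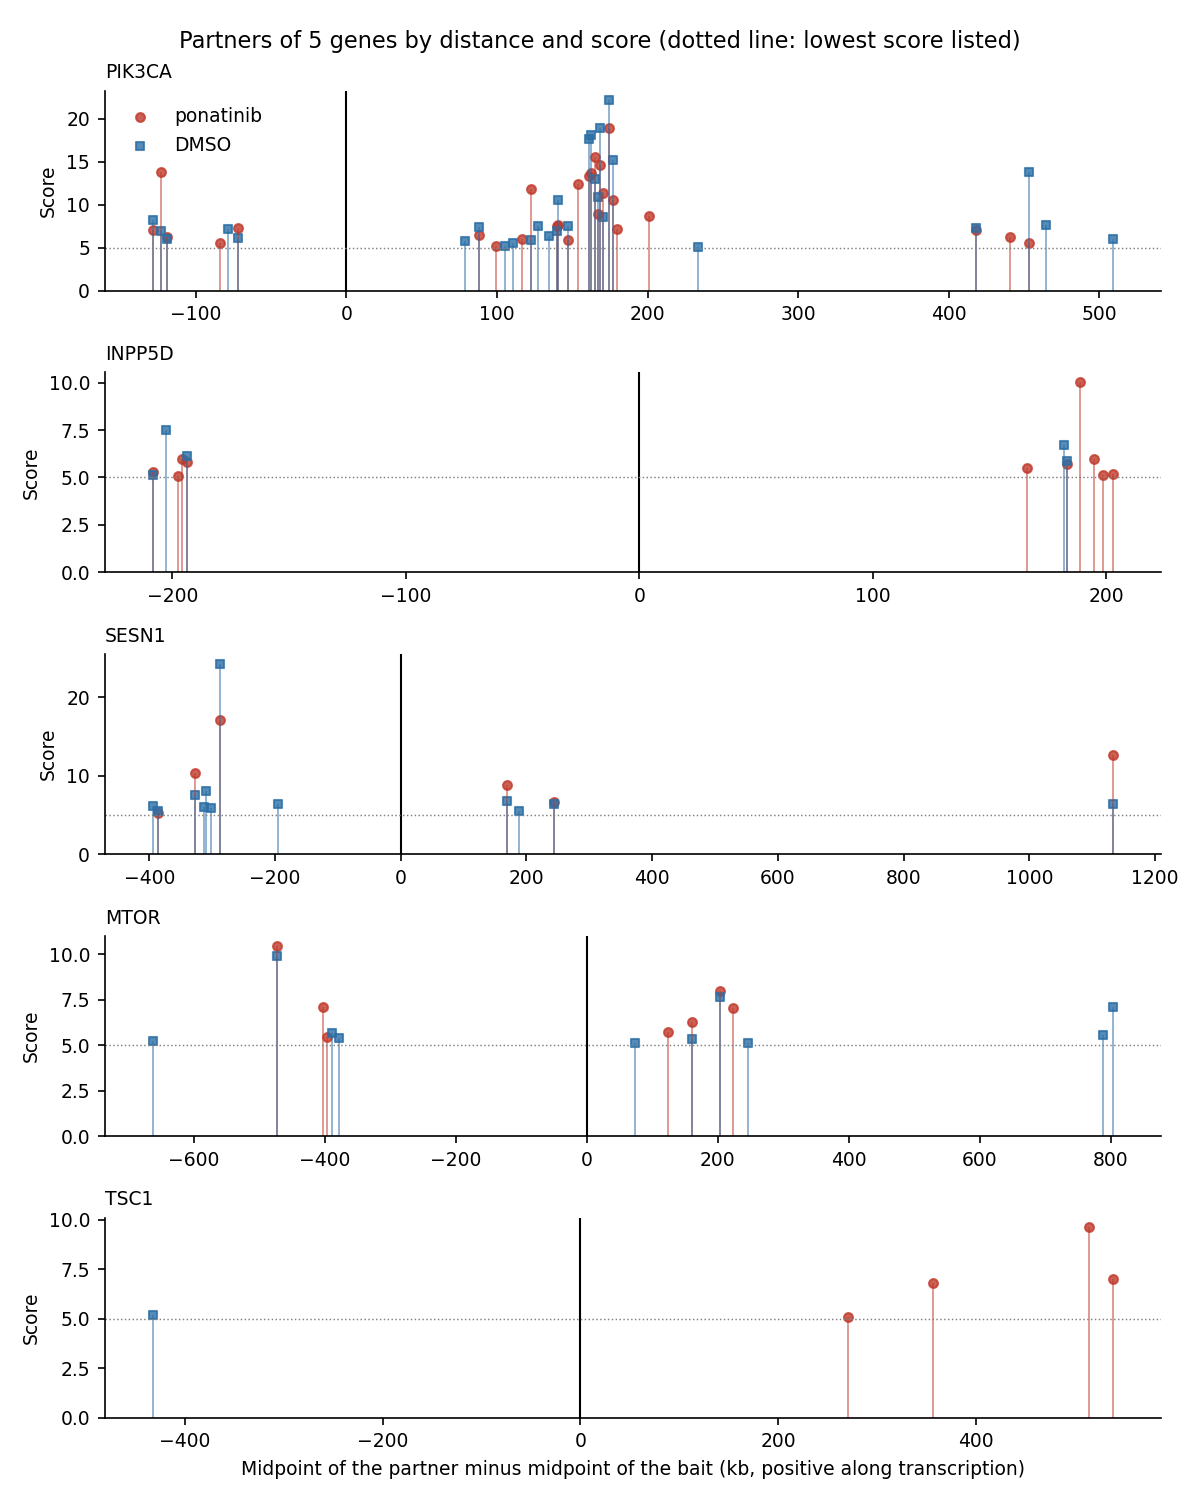
Score (y axis) of each partner against its distance from the bait midpoint (x axis, kb, positive along transcription) for 5 genes, ponatinib as red circles and DMSO as blue squares; pairs with other chromosomes and 1 PIK3CA pair beyond 1300 kb are not drawn. PIK3CA has a tall block downstream, INPP5D has ponatinib-only points up to 203 kb downstream, and the tallest SESN1 point is the CD164 partner, 17.08 in ponatinib and 24.28 in DMSO.

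Partners were also sorted by whether they are themselves promoter fragments. For MTOR the partner was itself a listed bait in 5 of 7 pairs in ponatinib, 71.4% (29.04 to 96.3%), and in 7 of 10 in DMSO, 70.0% (34.8 to 93.3%). For SESN1 it was so in 5 of 6 and 7 of 14. PIK3CA had bait partners in 6 of 27 pairs in ponatinib, 22.2% (8.62 to 42.3%), and 7 of 30 in DMSO, 23.3% (9.93 to 42.3%), and INPP5D in 0 of 10 and 1 of 5. Over all bait fragments, with each pair counted once per bait end, the share was 31.5% in ponatinib and 32.1% in DMSO. For the 7 genes together it was 36.2% (24.0 to 49.9%) and 38.1% (26.1 to 51.2%), intervals that hold those shares. The intervals of PIK3CA hold the share over all baits in both lists. Those of MTOR hold it in ponatinib and lie above it in DMSO, and those of SESN1 (35.9 to 99.6% in ponatinib, 23.04 to 77.0% in DMSO) lie above it in ponatinib and hold it in DMSO. Those of INPP5D (0 to 30.8% in ponatinib, 0.505 to 71.6% in DMSO) end just below it in ponatinib and hold it in DMSO, so none of these 4 genes stood apart in both lists.

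The wider pathway was followed in a list of 94 genes of PI3K, AKT and mTOR signalling, the 9 genes above included. Of these, 77 had a listed bait and 60 had at least 5 pairs. At least 2-fold more pairs in ponatinib were found for 4 of the 60 and at least 2-fold fewer for 3, against 9.92% and 6.26% of all genes, and the median log2 ratio was 0.19 against 0.08. More pairs by any amount were found for 33 genes, fewer for 20 and equal numbers for 7. These are 55% and 33.3% of the list with more and with fewer, near the 51.1% and 37.6% of all 9787 genes. Among the genes with more were RRAGD, a RAG GTPase gene (7 in ponatinib, 2 in DMSO), RHEB, the GTPase that activates mTOR (6 and 2), and SEC13, a GATOR2 and coat protein gene whose baits also hold an end of ATP2B2 (23 and 11). The genes with fewer, next to SESN1, were PIK3R4, a regulatory subunit of the class III kinase, listed at 0 in ponatinib and with 8 in DMSO, and LAMTOR1, a lysosomal Ragulator gene that shares its bait with ANAPC15 and TOMT ends (3 and 9).

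The classes are small and are read against the 51.1% of all genes that had more pairs in ponatinib and the 37.6% that had fewer. Of the 5 phosphatase genes with at least 5 pairs 4 had more, INPP5D among them, and PHLPP1 had 8 and 8. Of the 4 class I PI3K genes with at least 5 pairs only PIK3CG had more (4 and 3). PIK3CA, PIK3CB (2 and 4) and PIK3R3 (20 and 28) had fewer. Of the 5 mTOR complex genes 3 had more, among them DEPTOR, an mTOR inhibitor gene (32 and 24). In the class of pathway outputs 6 of 7 genes had more and 0 fewer. For class II and III kinase genes it was 0 of 2 with more and 2 with fewer. Adaptors had 1 with more and 2 with fewer of 4, AKT substrates 3 and 2 of 6, and TSC and RHEB genes 2 and 1 of 3. Of the 24 genes of nutrient and stress inputs 13 had more and 9 fewer, shares near those of all genes. Among these, SESN2 had 5 and 4 and SESN3 had 4 and 6, so the numbers of the 3 sestrin genes did not all lie on the same side. With 1 library a treatment, none of these numbers carries an error over replicates.

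**Figure D4:**
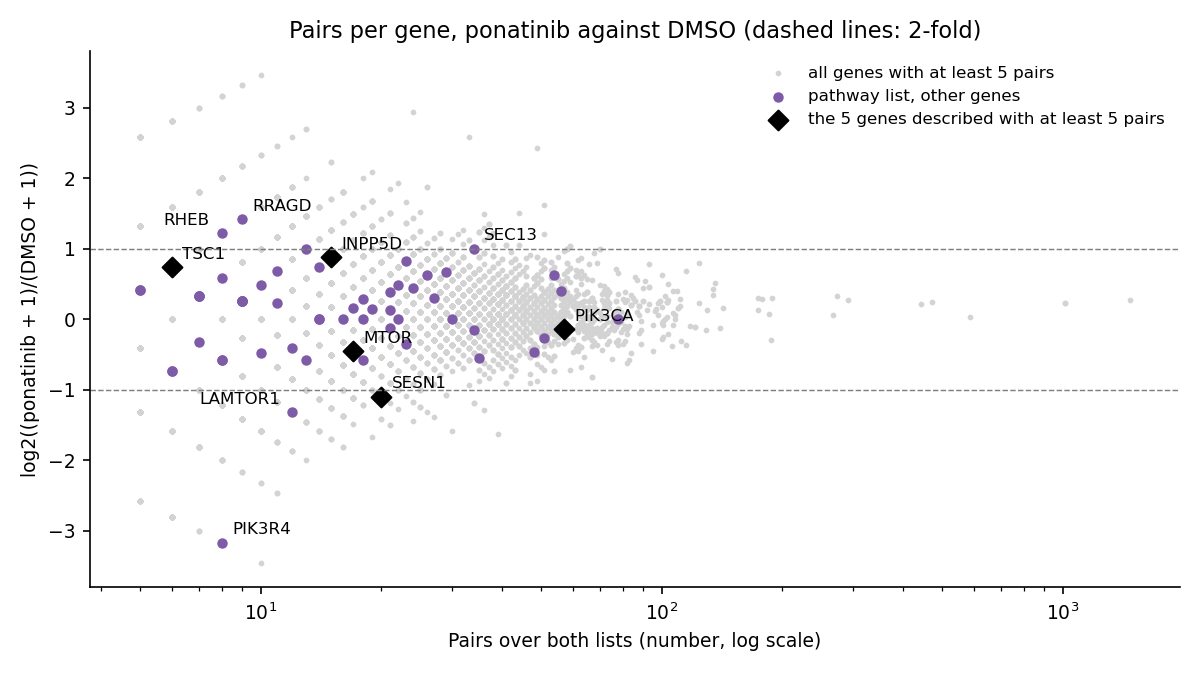
Log2 ratio of pair numbers, ponatinib over DMSO with 1 added to each (y axis), against the number of pairs over both lists (x axis, log scale) for all genes with at least 5 pairs (grey), other pathway list genes (purple) and the 5 genes described here that have at least 5 pairs (black). SESN1 lies below the dashed 2-fold line at -1.10 and INPP5D just under the upper one at 0.87, and the grey points spread more widely at small numbers.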

How the data were processed

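K562 promoter-capture Hi-C lists were used, 1 per treatment (ponatinib and DMSO). The authors deposited, per library, bait fragment, partner fragment and a score per pair. The score is the authors' own value, while its definition, the caller and the aligner were not stated in the sources used. The submitters' processing notes name hg38 as the build. No counts or depths were given. No comparison of scores here is corrected for depth.

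Lines were reduced to unordered pairs (1 ponatinib pair was listed in both orientations). Genes and promoter sequences came from RefSeq tables of GRCh38.p14; all 9 genes matched. Distances run between fragment midpoints. Genes were called different at 2-fold, with a pseudocount of 1 and at least 5 pairs over both lists. Intervals for shares are exact binomial (Clopper-Pearson) at 95%, and that of the difference of medians combines those of the medians, taken from ranked values. Counting per gene was tested on simulated lists. Python 3.11.15, pandas 2.3.3 and scipy 1.17.1 were used.

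The genes, the pathway list and the alternatives were chosen with earlier results of these data known. The text names the 9 genes, genes on the same bait, up to 4 pathway genes past 2-fold in each direction, and genes with an end on the partner of the 3 highest scoring pairs or of a pair in both lists. Other genes, named as the location of a fragment or for a class of the pathway list, were chosen after their values were seen. A gene of the pathway list that this rule would name is not reported here.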

Additional observations from a re-analysis of the deposited data

How the results depend on the processing

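No paired analysis was possible because each treatment had 1 library. Settings tried were a minimum score of 7 or 10, lists of equal length, pairs on 1 chromosome only, baits within 1 kb of a gene end, baits holding the transcription start only, matches within 5 or 10 kb, a pseudocount of 0.5, division by the ratio of list lengths, at least 10 pairs, and leaving out TSC1 or PIK3CA. The share of the 7 genes' pairs in ponatinib stayed within its interval except at a minimum score of 10 (60.0%). At that score the whole lists had 14935 pairs in ponatinib and 12533 in DMSO. The overlap between the lists moved with matching within 5 kb (65.9%) and 10 kb (68.2%), which accept more pairs by construction. The difference in median distance stayed inside its interval, but was above 0 at minimum scores of 7 (1.90 kb) and 10 (2.78 kb). SESN1 turned at scores of at least 7, with 57.1% of its pairs in ponatinib (18.4 to 90.1%), and at 10, with 75% (19.4 to 99.4%). Over all genes, 520 of 4865 tested had at least 2-fold more and 257 fewer at scores of at least 7. The numbers were 216 and 60 of 1813 at 10, and 467 and 243 of 6381 with at least 10 pairs, so fewer genes are tested there. Those with more were 722 of 9579 at equal length, 671 of 9787 with division and 762 of 7540 with the start only. In the pathway list the genes with at least 2-fold more numbered 3 of 33 tested at scores of at least 7 and 1 of 13 at 10. They numbered 2 of 59 at equal length, 2 of 60 with division, 2 of 48 with the start only and 2 of 41 with at least 10 pairs. Those with fewer numbered 1 of 33 at scores of at least 7 and 0 of 13 at 10. With fewer genes tested, a lower count is not by itself a lower share. A pseudocount of 0.5 gives the same calls by construction. AKT1 had no value with the start only, nor PIK3R1, AKT1 and TSC1 at scores of at least 10. Of 38 values for single genes under alternatives, 32 stayed within their interval, 4 moved and 2, both of SESN1, turned. PIK3CA and MTOR, which were not called, also passed 50% at minimum scores of 7 and 10. Depth is unknown, and 58 and 63 pairs limit what these lists can show.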

Other observations

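FOXO3 and SESN1 lie on the same part of chromosome 6, with ARMC2 between them. Baits paired with the SESN1 fragment also had listed pairs with fragments of FOXO3. In ponatinib the bait of the ARMC2 start (chr6:108848197-108850941), a partner of SESN1 in both lists, was paired with chr6:108571136-108575301 in FOXO3, 276 kb away, with a score of 5.10. In DMSO the bait of the CD164 start, the top partner of SESN1, was paired with chr6:108562039-108565405 in FOXO3, 817 kb away, with a score of 6.30. That bait is a hub with 34 partners in each list. A SEC63 bait other than the partner of SESN1 was paired in ponatinib with the fragment of the most downstream FOXO3 start (5.15, 661 kb). None of these FOXO3 pairs was in both lists, and each scored below the median of its list (6.55 in ponatinib, 6.47 in DMSO).

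Baits far from TSC1 also had pairs within the TSC1 gene. The TTF1 bait, paired with the TSC1 and GFI1B start fragment in ponatinib (6.99), was in the same list paired with chr9:132923026-132926557 inside TSC1 (6.85). The STKLD1 and SURF4 bait, paired with the start fragment in DMSO (5.20), was in ponatinib paired with chr9:132894447-132895618 inside TSC1 (5.26). These pairs fall outside the rule for the gene's pairs, since their TSC1 ends are not on a listed bait.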
